A study of Mus musculus with 6 samples.

Results

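The resistin-like molecules are a small family of secreted, cysteine-rich proteins, and 3 of the 4 mouse genes asked for (Retnla, Retnlb and Retn) could be followed in the lungs of Foxa2-/- mice. Members were taken by gene symbol alone: each of these 3 genes had 1 probe set among the 45037 probe sets of the array, or 3 of the 18193 genes with a probe set of their own. No probe set carries the symbol Retnlg in the annotation used, so Retnlg was not analysed here. Whole-lung total RNA was measured at postnatal day 15 on 6 Affymetrix mouse genome arrays, 3 from lungs labelled as wildtype controls and 3 from littermates labelled Foxa2-/-. The study asked what Foxa2, a forkhead factor of airway and alveolar epithelium, has to do with Th2 inflammation and goblet cell hyperplasia. The strain label of every sample in both groups reads SPC(+)Cre(-), with doxycycline (Dox) from embryonic day 6.5 to 12.5. SPC is the surfactant protein C gene of alveolar type II cells, and the labels do not say what the SPC and Cre elements drive. Because a Cre-negative label conflicts with a deleted Foxa2, the genotype label was read against the Foxa2 signal itself. All values are the authors' deposited log2 signals.

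Retnla encodes RELM-alpha (also called FIZZ1), which airway epithelium, alveolar type II cells and macrophages secrete in response to interleukin-4 and interleukin-13 acting through the transcription factor STAT6. Retnlb encodes RELM-beta, best known as a product of goblet cells in the gut and, in type 2 inflammation, in the airway. Retn encodes resistin, which in mice is a hormone of fat cells. Retnlg encodes RELM-gamma, known from bone marrow and granulocytes.

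Retnlb, Retnla and Retnlg are direct neighbours in that order among the protein-coding genes of chromosome 16 in the RefSeq table of assembly GRCm38.p6, and Retn lies on chromosome 8. The 250 bases upstream of the annotated start are shown for Retnla and Retn, the 2 measured members that RefSeq's promoter table (GRCm38.p6) holds, because STAT6 and C/EBP factors are the textbook regulators of Retnla. The Retnla stretch is chr16:48842359-48842608 and that of Retn is chr8:3655520-3655769, both on the plus strand. A shorter Retnlg stretch, chr16:48872521-48872560 on the plus strand, is set beside the matching part of Retnla, chr16:48842449-48842488. Capitals mark every match on either strand to 4 motifs: TTCNNNNGAA and TTCNNNGAA, the STAT spacings, TTGCNNAA, a C/EBP motif, and TGTTTAC, a forkhead core.
Retnla: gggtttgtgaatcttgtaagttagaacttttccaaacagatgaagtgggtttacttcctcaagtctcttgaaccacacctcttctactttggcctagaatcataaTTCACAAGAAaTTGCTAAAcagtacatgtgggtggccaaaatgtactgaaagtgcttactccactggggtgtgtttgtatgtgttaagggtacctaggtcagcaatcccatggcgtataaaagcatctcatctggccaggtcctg
Retn: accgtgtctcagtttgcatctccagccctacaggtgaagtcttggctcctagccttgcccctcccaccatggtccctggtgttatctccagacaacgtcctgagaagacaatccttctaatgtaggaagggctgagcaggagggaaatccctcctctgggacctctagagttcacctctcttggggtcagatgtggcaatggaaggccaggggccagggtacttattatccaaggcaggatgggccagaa
Retnla, part: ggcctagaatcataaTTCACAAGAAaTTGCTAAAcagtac
Retnlg, part: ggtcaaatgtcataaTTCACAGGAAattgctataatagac

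The Retnla stretch held TTCACAAGAA, a match to TTCNNNNGAA, from 145 to 136 bases before the start. It was followed after 1 base by TTGCTAAA, a match to TTGCNNAA, from 134 to 127 bases before the start, and the matches do not overlap. Among 32536 upstream stretches of the same length, 5.89% held TTCNNNNGAA and 9.57% held TTGCNNAA. TTCNNNGAA (7.04% of stretches) and TGTTTAC (3.17%) had no match in the Retnla letters, and none of the 4 motifs had one in the Retn letters. The upstream stretches of Retnla and Retnlg aligned over 175 positions, of which 138 (78.9%) were identical. Retnlg held TTCACAGGAA from 72 to 63 bases before its start, and elsewhere a match to TGTTTAC and one to TTGCNNAA. These matches are descriptions of letters and show no binding.

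Foxa2 signal was 10.28, 10.56 and 10.28 in control replicates 1 to 3 and 7.72, 5.38 and 5.13 in Foxa2-/- (null) replicates 1 to 3. Every null lung therefore lay below every control, as the genotype label says, and null replicate 1 kept the most signal. The difference was -4.30 log2 units (SE 0.66), with a limma adjusted p of 0.0599, which was 0.00227 without null replicate 1 and 0.15 to 0.214 without any other single array. Array medians lay between 7.85 and 7.91, and the lowest 25% of probe sets lay below 5.69 to 5.78. Signal of the lung genes Sftpc and Scgb1a1 lay between 14.30 and 14.43 on every array, and none of 8 genes of a lung tissue check passed. Sftpc and Scgb1a1 lie close to the arrays' brightest probe sets (14.72 to 14.88), where differences can be compressed, so their even signal says little. For the array's Gapdh controls, the 3-prime signal exceeded the 5-prime signal, a gap that widens as RNA degrades, by 1.06 to 1.23 log2 units on the control arrays and by 0.91 to 0.97 on the null arrays. This gap separates the groups, while that of the Actb controls overlaps between them (0.46 to 0.65 and 0.43 to 0.47), and the part of RNA quality in the family values was not tested. Whether every array comes from its own animal is not stated, so the p-values reflect only how far these samples scatter, which may be technical.

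Retnla signal was high in all 6 lungs and highest in the 3 null lungs. It read 13.32, 11.92 and 13.94 in control replicates 1 to 3, against 14.23, 14.45 and 14.37 in null replicates 1 to 3. All null lungs lay above all controls, and control replicate 2 stood well below the other controls. The means were 13.06 ± 1.03 for controls and 14.35 ± 0.11 for null lungs (SD of log2 signal, n = 3 each), a ratio of 2.45-fold. The difference of 1.29 log2 units (SE 0.48, 95% interval 0.15 to 2.44) had an unadjusted p of 0.0325 and a limma adjusted p of 0.346 over 18193 genes, so Retnla did not pass the 0.05 threshold. In this comparison 0.572% of genes passed (0.473% higher and 0.0989% lower in null lungs), 10.8% had every null array above every control and 8.73% had every one below, so separated groups alone are common here. In bulk RNA, more cells that make a transcript and more transcript per cell cannot be told apart.

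The spread of Retnla among controls was wider than the step between the groups. The highest control exceeded the lowest by 2.01 log2 units, a 4.03-fold ratio of linear signal, while the null lungs spanned 0.22 log2 units, a ratio of 1.17-fold. The probe set stood at the 98.7th, 92.3rd and 99.7th percentile of all probe sets in control replicates 1 to 3 and at the 99.9th or above in the null lungs. The brightest probe set of each array read 14.72 to 14.88, so the null values lay within 0.66 log2 units of the brightest signal of their own array, where differences can be compressed. Control replicate 2 carries much of the difference. Without it the Retnla difference was 0.72 (SE 0.22, limma adjusted p = 0.36), and without any other single array it ran from 1.24 to 1.73. Among the 3 arrays that share the first number in their sample titles, which are control replicate 2 and null replicates 2 and 3, the difference was 2.49, with 1 control array behind it. With that number as a fixed block the value must be the same, because every other array is alone in its number. With it as a random block the difference was 1.84 (limma adjusted p = 0.0841).

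**Figure D1:**
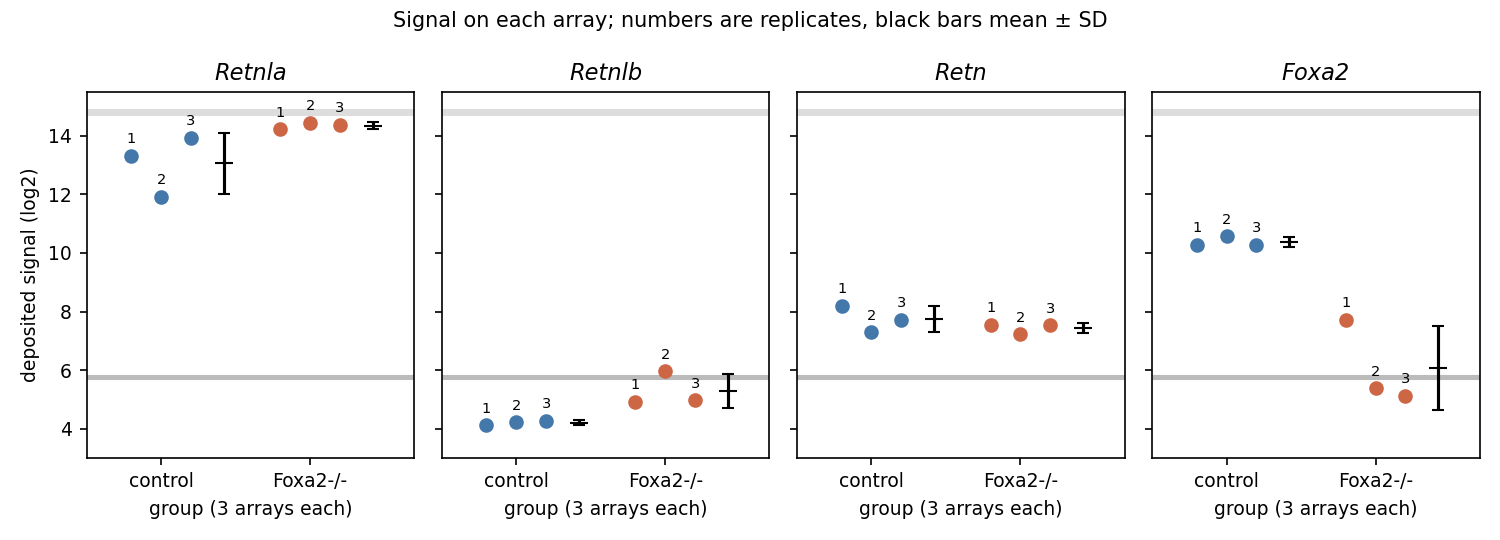
Deposited log2 signal of Retnla, Retnlb, Retn and Foxa2 on each of the 6 arrays, by group; points are arrays numbered by replicate and black bars are the mean ± SD of 3 arrays. The dark band spans the arrays' 25th percentiles (5.69 to 5.78) and the light band their brightest probe sets (14.72 to 14.88): Retnla lies just under the light band in all null lungs, Retnlb lies under the dark band on all arrays but null replicate 2, and Retn overlaps between groups.

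Retnlb was dim everywhere and less dim in the null lungs. It read 4.11, 4.22 and 4.27 in control replicates 1 to 3, against 4.91, 5.95 and 4.97 in null replicates 1 to 3. Again all null lungs lay above all controls, and null replicate 2 stood above the other null lungs. Only the value of null replicate 2 was above the 25th percentile of its array (27.4th percentile), and the other 5 values lay between the 9.09th and the 16.7th percentile. No detection call comes with the deposited values, so Retnlb is given no fold. The group means were 4.20 ± 0.08 and 5.28 ± 0.59 (log2, SD, n = 3 each). The difference of 1.08 log2 units (SE 0.28, 95% interval 0.40 to 1.76) had an unadjusted p of 0.00768 and a limma adjusted p of 0.188, which misses the threshold. Without null replicate 2 it was 0.74 (SE 0.13, limma adjusted p = 0.163), and without any other single array it ran from 1.03 to 1.26.

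Retn did not separate the groups. Signal was 8.19, 7.29 and 7.71 in control replicates 1 to 3 and 7.54, 7.22 and 7.53 in null replicates 1 to 3. The null values fell inside or just below the range of the controls, and control replicate 1 was the highest of all. The means were 7.73 ± 0.45 and 7.43 ± 0.18 (log2, SD, n = 3 each), a difference of -0.30 (SE 0.24, 95% interval -0.87 to 0.27, limma adjusted p = 0.667). The interval still allows a difference of close to 1 log2 unit downward. Within the shared title number the sign turned, to 0.08, which by construction is also the value with that number as a fixed block. Without control replicate 1 the difference was -0.07 and without control replicate 2 it was -0.52 (limma adjusted p = 0.929 and 0.497). Whether the differences of the 3 genes differ from each other was not tested.

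**Figure D2:**
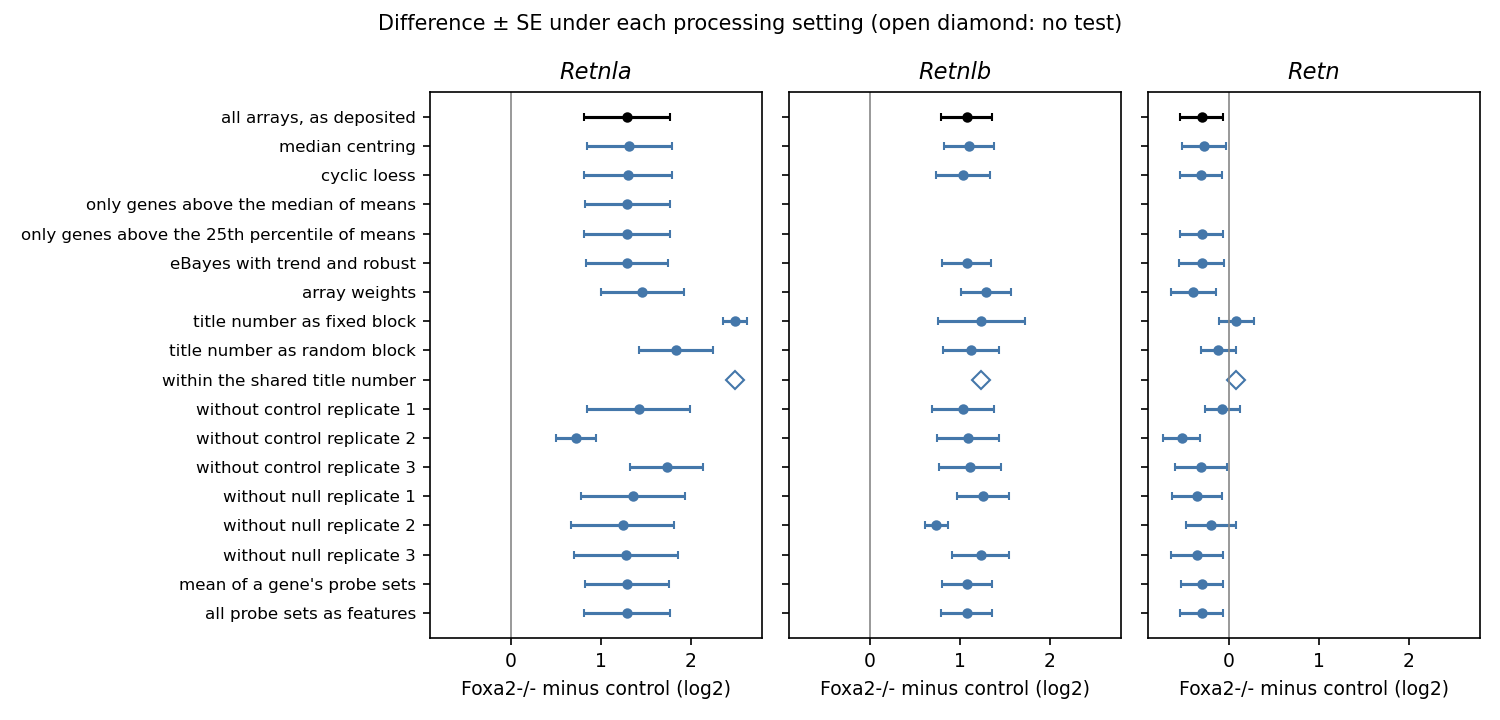
Difference between Foxa2-/- and control lungs (log2) of Retnla, Retnlb and Retn under each processing setting; circles show the difference ± SE and open diamonds a value with no test. Retnla stays above 0 but runs from 0.72 without control replicate 2 to 2.49 within the shared title number, Retnlb runs from 0.74 to 1.29, and Retn crosses 0; Retnlb has no point where dim genes were left out.

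Over the 6 arrays the 3 genes followed different patterns. Pearson's r, a description over 6 arrays that fall into 2 groups, was 0.65 between Retnla and Retnlb, -0.62 between Retn and Retnlb and -0.01 between Retn and Retnla. The genes of most similar pattern were therefore sought for each member, among genes whose signal ranged over at least 1 log2 unit, and the 5 with the highest r are named. Such likeness was not confined to these 5: at an r of 0.95 or more there were 49 genes for Retnla, 111 for Retnlb and 31 for Retn, of 18192. These counts took all genes, whatever their range. Genes picked by r on these same arrays share the member's group pattern by choice. Whether their groups separate, and their r with arrays left out, is therefore no independent check.

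The genes closest to Retnla were low in control replicate 2 and high in all null lungs, as Retnla was. They were Cma1, a mast cell chymase (r = 0.993), Pigr, the receptor that carries antibodies across epithelia (0.989), Clca1, a secreted goblet cell protein (0.983), Rasd2, a small GTPase (0.978), and Alox12e, a lipoxygenase (0.978). Clca1 read 10.95, 7.08 and 11.61 in control replicates 1 to 3 and 13.58, 13.15 and 13.40 in null replicates 1 to 3. Pigr read 7.41, 6.08 and 8.13 in the controls and 8.65, 9.15 and 8.73 in the null lungs. For all 5 the null lungs lay above the controls, and none passed (limma adjusted p from 0.199 to 0.329). Without control replicates 1 and 2, the arrays farthest from the median of Retnla, their r ran from 0.80 for Rasd2 to 0.96 for Pigr. That leaves control replicate 3 alone beside the null lungs. The dimmer probe set of Clca1 followed Retnla less closely (r = 0.71), while those of Pigr and Rasd2 gave 0.98 and 0.96.

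The genes closest to Retnlb had their highest signal in null replicate 2. They were Itgam, an integrin of myeloid cells (r = 0.996), Il10, an anti-inflammatory cytokine (0.992), Ptk2b, a tyrosine kinase (0.991), Selp, the adhesion molecule P-selectin (0.990), and Cxcl13, a chemokine that attracts B cells (0.990). Cxcl13 read 9.49, 9.82 and 9.68 in control replicates 1 to 3 and 10.98, 12.27 and 11.10 in null replicates 1 to 3. For all 5 the null lungs lay above the controls, and none passed (limma adjusted p from 0.0974 to 0.274). Il10 was as dim as Retnlb, between 3.77 and 3.87 in controls and between 4.40 and 5.11 in null lungs. No gene of the goblet cell list was among the 5. Over that list r with Retnlb ran from -0.27 for Muc2 to 0.91 for Slc26a4, with 0.79 for Foxa3, 0.76 for Agr2 and 0.62 for Clca1 between them. Without control replicate 1 and null replicate 2 the 5 genes' r ran from 0.96 to 0.99. The dimmer probe set of Ptk2b gave an r of 0.60.

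The genes closest to Retn were high in control replicate 1 and low in control replicate 2 and null replicate 2. They were Car3, a carbonic anhydrase abundant in fat (r = 0.987), Adipoq, the fat cell hormone adiponectin (0.977), Nppa, the atrial natriuretic peptide of heart muscle (0.977), Fabp3, the fatty acid binding protein of heart muscle (0.974), and Poln, a DNA polymerase (0.970). Adipoq read 8.31, 4.44 and 6.37 in control replicates 1 to 3 and 5.50, 4.36 and 4.76 in null replicates 1 to 3. Car3 read 10.64, 6.60 and 8.56 in the controls and 8.15, 6.94 and 7.73 in the null lungs. The 4 Adipoq values in control replicate 2 and the null lungs fell among the lowest 25% of probe sets, which leaves its pattern to control replicates 1 and 3. Both genes were highest in control replicate 1, as Retn was, and their groups overlap (limma adjusted p = 0.576 for Adipoq and 0.719 for Car3). Without control replicate 1 and null replicate 2, r was 0.90 for Adipoq and 0.98 for Car3. All 4 probe sets of Car3 followed Retn, with r from 0.85 to 0.99, but the dimmer probe set of Fabp3 gave 0.31.

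**Figure D3:**
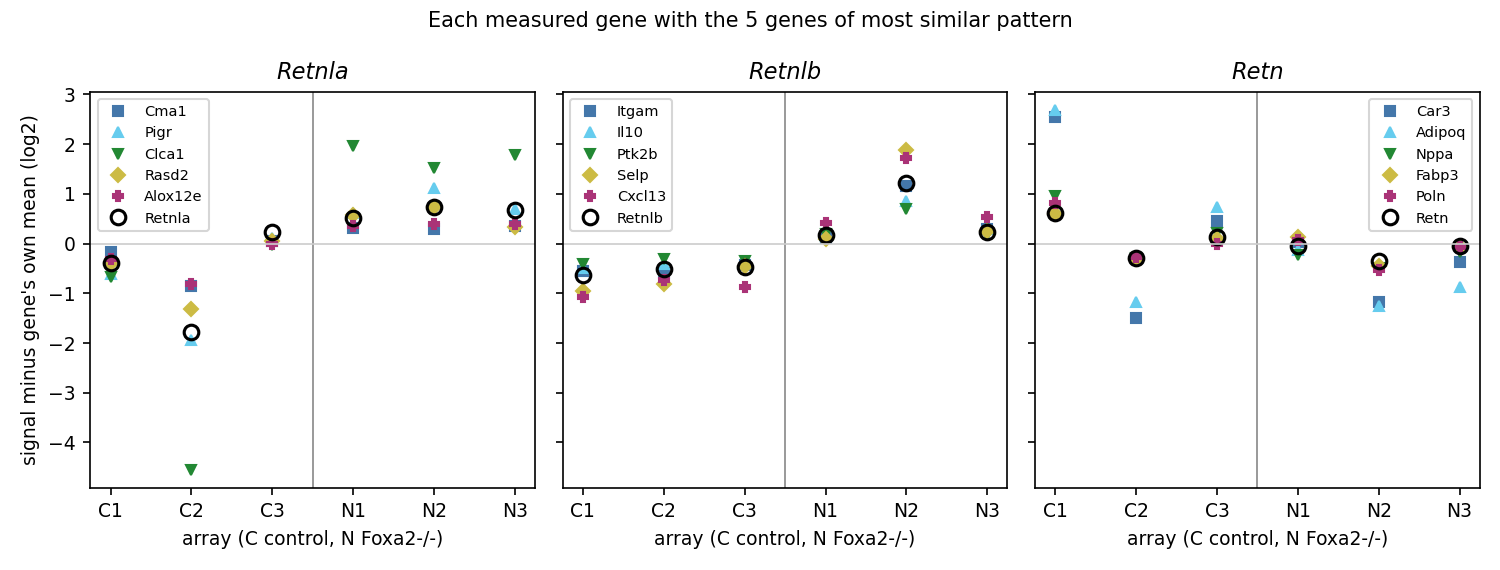
Log2 signal on each array minus the gene's own mean over the 6 arrays, for Retnla, Retnlb and Retn (open black circles) and the 5 genes of most similar pattern to each. The Retnla panel is set by a low control replicate 2 (C2), the Retnlb panel by a high null replicate 2 (N2), and the Retn panel by a high control replicate 1 (C1).

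None of the 15 adipocyte markers measured passed the test, and their median difference was -0.13, beside a median of 0.01 over all 18193 genes. Their summed linear signal ran from 13492 to 17598 in controls and from 13921 to 19949 in null lungs, so the groups overlap. Within this list r with Retn was uneven: beside Car3 and Adipoq, it was 0.94 for Pck1, 0.92 for Plin4 and 0.88 for Cidea, but -0.59 for Lipe, -0.51 for Lpl, -0.48 for Lep, -0.20 for Pparg, -0.10 for Acaca and -0.02 for Fabp4. Pck1 lay below the 25th percentile on every array (4.57 to 5.10), and its dimmer probe sets gave an r of 0.90 and -0.23. The list median turned to 0.08 without control replicate 1 and 0.04 without null replicate 2, and was -0.37 without control replicate 2. Lep, the fat cell hormone leptin, lay below the 25th percentile on every array (4.39 to 4.88), with a difference of 0.34 (SE 0.11, limma adjusted p = 0.281). Cidec, a lipid droplet protein of fat cells, had a difference of -0.83 (SE 0.36, limma adjusted p = 0.424). The part of fat cells in the Retn values was not tested. Next to Retn on chromosome 8 lies Mcemp1, a mast cell and macrophage membrane protein, with a difference of 0.91 (SE 0.13, limma adjusted p = 0.054), and after it Fcor, a corepressor of FOXO1 known from fat tissue, which rose by 0.86 (SE 0.11, limma adjusted p = 0.0429). Of these 11 genes, Retn and the 5 protein-coding genes on either side, Fcor was the only one to pass. None of the measured neighbours within 5 genes of the chromosome 16 cluster did. There, Trat1, a T cell adaptor next to Retnlb, differed by 0.48 (SE 0.73) and Dzip3, an RNA-binding ubiquitin ligase beside Retnlg, by -0.19 (SE 0.51). The neighbours were chosen after the values of the family were seen.

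The cytokines that induce Retnla and Retnlb, with their receptors and signalling proteins, were examined next. None of the 15 measured genes of this list passed. Il4 was 5.24 to 5.97 in controls and 6.25, 7.74 and 6.99 in null replicates 1 to 3, a difference of 1.43 (SE 0.39, limma adjusted p = 0.2). Control means of Il4 and Il13 (5.56 and 5.34) were as dim as the lowest 25% of probe sets, which leaves the size of these differences uncertain. Il13 was 5.21 to 5.44 in controls and 6.35, 7.51 and 5.98 in the null lungs (limma adjusted p = 0.234). Both cytokines were highest in null replicate 2, where Retnlb was highest, and their r with Retnlb over the 6 arrays was 0.95 for Il4 and 0.98 for Il13, against 0.73 and 0.56 with Retnla. The first pair of values sets dim signal against dim signal. Il33, an epithelial alarm cytokine upstream of both, differed by 1.05 (SE 0.22, limma adjusted p = 0.116). The other epithelial alarm cytokines listed, Tslp and Il25, differed by -0.75 (SE 0.37) and 0.03 (SE 0.12). Their groups overlap, and Il25 was dim in both groups. Il13ra2, a decoy receptor for interleukin-13, differed by 1.88 (SE 0.48, limma adjusted p = 0.178). Stat6 itself read between 11.40 and 11.80 in controls and between 11.68 and 11.76 in null lungs, a difference of 0.06. The list median was 0.31, and 12 of the 15 differences were positive, beside 9246 of 18193 over all genes.

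Of 11 transcription factors linked to the family's promoters none passed, and their median difference was 0.06 (0.31 without null replicate 2 and 0.21 without control replicate 1). Foxa3, the forkhead relative of Foxa2, differed by 1.25 (SE 0.27, limma adjusted p = 0.123), Irf4, a factor of alternative macrophage activation, by 1.21 (SE 0.35, limma adjusted p = 0.224), and Pparg, a nuclear receptor of alveolar macrophages and fat cells, by 0.56 (SE 0.12, limma adjusted p = 0.134). For these 3 and for Cebpa and Foxa1, 5 of the 11, every null lung lay above every control, beside 10.8% of all genes. Foxa1, a further forkhead factor, differed by 0.28 (SE 0.11, limma adjusted p = 0.367). Cebpa, a C/EBP factor of type II cells and myeloid cells, read 12.57, 12.30 and 12.65 in control replicates 1 to 3 and 12.88, 12.66 and 12.75 in null replicates 1 to 3. Its lowest value fell in control replicate 2, as that of Retnla did. Cebpb differed by 0.04.

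Of the 5 proteins proposed to bind resistin or RELM proteins none passed. Btk, a kinase reported to bind RELM-alpha, differed by 0.87 (SE 0.25, limma adjusted p = 0.222), with all null lungs above all controls. Ror1, a receptor tyrosine kinase, differed by -0.48 (SE 0.14, limma adjusted p = 0.244), with all null lungs below, but its dimmer probe sets gave -0.09 and 0.09. Dcn, the matrix proteoglycan decorin, differed by -0.67 (SE 0.34, limma adjusted p = 0.497). Cap1, a cyclase-associated protein proposed as a resistin receptor, differed by 0.09, and Tlr4, the lipopolysaccharide receptor, by -0.03 with a wide spread among null lungs (8.21, 10.40 and 10.16).

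Genes that alternatively activated macrophages turn on beside Retnla had a median difference of 1.90 over the 17 measured. Of these, 2 rose, none fell and 15 did not pass, while over all genes 0.473% rose and 0.0989% fell. In 16 of the 17 every null lung lay above every control, beside 10.8% of all genes. Ccl24, a chemokine for eosinophils, rose by 3.63 (SE 0.48, limma adjusted p = 0.0429) and Ccl17, a chemokine for Th2 cells, by 2.44 (SE 0.29, limma adjusted p = 0.036). Retnla's own difference was 1.29 beside this median, but the order of the 2 values turned with the title number as a fixed block (2.49 against 1.63) or as a random block (1.84 against 1.71). Of the 15 goblet cell genes set beside Retnlb, 1 rose, none fell and 14 did not pass, with a median of 1.13. The one that rose was Slc26a4, the anion exchanger pendrin, by 5.59 (SE 0.55, limma adjusted p = 0.0222). Both lists were chosen with results of these samples known and are no independent evidence of a direction. Over all genes limma called 104, but none when control replicate 1, control replicate 2 or null replicate 3 was left out (1654, 1801 and 2111 at an unadjusted p under 0.05).

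Markers of the cell types that can make Retnla, and of their neighbours in the lung, were counted beside it. Over all genes 0.473% rose and 0.0989% fell. Some genes, such as Siglecf, Chil3, Mrc1, Alox15, Pparg and Foxa3, stand in more than 1 list used here, so the lists are not independent. In each summed signal the bright genes weigh most. Of 12 alveolar macrophage markers 3 rose, Itgax, an integrin, by 1.94 (SE 0.23), Trem2, a lipid-sensing receptor, by 1.64 (SE 0.15), and Cd68, a lysosomal protein, by 1.45 (SE 0.13), with limma adjusted p values of 0.036, 0.0198 and 0.0198. The dimmer probe set of Trem2 gave 0.26. In all, 11 of the 12 differences were positive, beside 9246 of 18193 over all genes. They were small for Marco (0.18), Fabp5 (0.13) and Car4 (0.20), and Krt79 differed by -0.37. The list median was 0.78, and 0.43 over all probe sets of these genes. The summed linear signal of the 12 ran from 33741 to 37858 in controls and from 51411 to 60540 in null lungs, so the groups do not overlap. Of 7 eosinophil markers 3 rose, Prg2 and Prg3, granule proteins, by 3.50 (SE 0.26) and 1.55 (SE 0.21), and Epx, the eosinophil peroxidase, by 2.40 (SE 0.23), with limma adjusted p values of 0.0152, 0.0429 and 0.0208. Control means of Prg3 and Epx (4.85 and 5.47) lay below the 25th percentile of every array. In 5 of the 7 every null lung lay above every control, beside 10.8% of all genes. The groups overlap for the receptors Ccr3 (1.94, SE 0.96) and Il5ra (0.30, SE 0.32). The list median was 1.94, and the summed signal of the 7 lay between 1047 and 1732 in controls and between 4489 and 10039 in null lungs. None of 12 markers of interstitial macrophages and monocytes passed. The smallest p values were those of the complement subunits C1qa (1.03, SE 0.18, limma adjusted p = 0.0795) and C1qb (0.86, SE 0.20, limma adjusted p = 0.143) and of Cd14, a lipopolysaccharide co-receptor (1.10, SE 0.21, limma adjusted p = 0.0913). The list median was 0.60 (0.93 without null replicate 1), and the summed signal ran from 24138 to 24529 in controls and from 27316 to 40671 in null lungs. None of 11 alveolar type II cell markers passed, with a median of 0.06. Sftpd, surfactant protein D, had a difference of 0.68 (SE 0.11, limma adjusted p = 0.0719), Napsa, an aspartic protease, one of 0.34 (SE 0.14, limma adjusted p = 0.405), and Sftpa1, surfactant protein A, one of 0.32 (SE 0.14, limma adjusted p = 0.407). The others lay near 0 (Sftpc -0.03, Abca3 -0.07, Lpcat1 -0.13, Slc34a2 0.02) except Lyz2, which macrophages make as well (0.33). Sftpc and Sftpa1 lie near the top of the scale, where differences can be compressed. The summed signal, in which bright genes weigh most, lay between 112206 and 127393 in controls and between 133451 and 139155 in null lungs. None of 7 club cell markers passed, and 6 of the 7 differences were negative, while 9246 of 18193 were positive over all genes. Cldn10, a claudin, had a difference of -0.85 (SE 0.13, limma adjusted p = 0.0605), Cyp2f2, a club cell cytochrome, one of -0.51 (SE 0.13, limma adjusted p = 0.165) and Hp, haptoglobin, one of -0.50 (SE 0.12, limma adjusted p = 0.163). For these 3 and Scgb3a2 (-0.25), 4 of the 7, every null lung lay below every control, beside 8.73% of all genes. The list had a median of -0.25 (-0.42 without control replicate 2) and a summed signal between 72380 and 85828 in controls and between 65041 and 70788 in null lungs. No listed marker is at 0 on this scale, and the part of these cell types in the Retnla and Retnlb values was not tested.

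Retnlg, the granulocyte member, was not analysed here, and only neutrophil markers stand near it. Of 16 such markers 1 rose, Fcgr3, an antibody receptor that macrophages and natural killer cells carry as well, by 1.31 (SE 0.16, limma adjusted p = 0.0367), none fell, and the median was 0.29. In all, 15 of the 16 differences were positive, and the median was 0.11 without control replicate 2 and 0.62 without control replicate 3. Over all genes 0.473% rose and 9246 of 18193 differences were positive. Granule genes ranged from Lcn2, an iron-binding defence protein that epithelium also makes (1.13, SE 0.17, limma adjusted p = 0.0599), to Mpo (0.04) and Elane (0.01). Between them lay the proteases Mmp9 (0.53) and Mmp8 (0.52), Ngp (0.32), Ltf (0.28) and Camp (0.15). Mpo and Elane were dim in both groups. The abundant cytosolic genes S100a8 and S100a9 differed by 0.04 and -0.03. Among these granule and cytosolic genes, the null lungs lay above all controls for Lcn2 and Mmp9, and the groups overlap for the others.

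**Figure D4:**
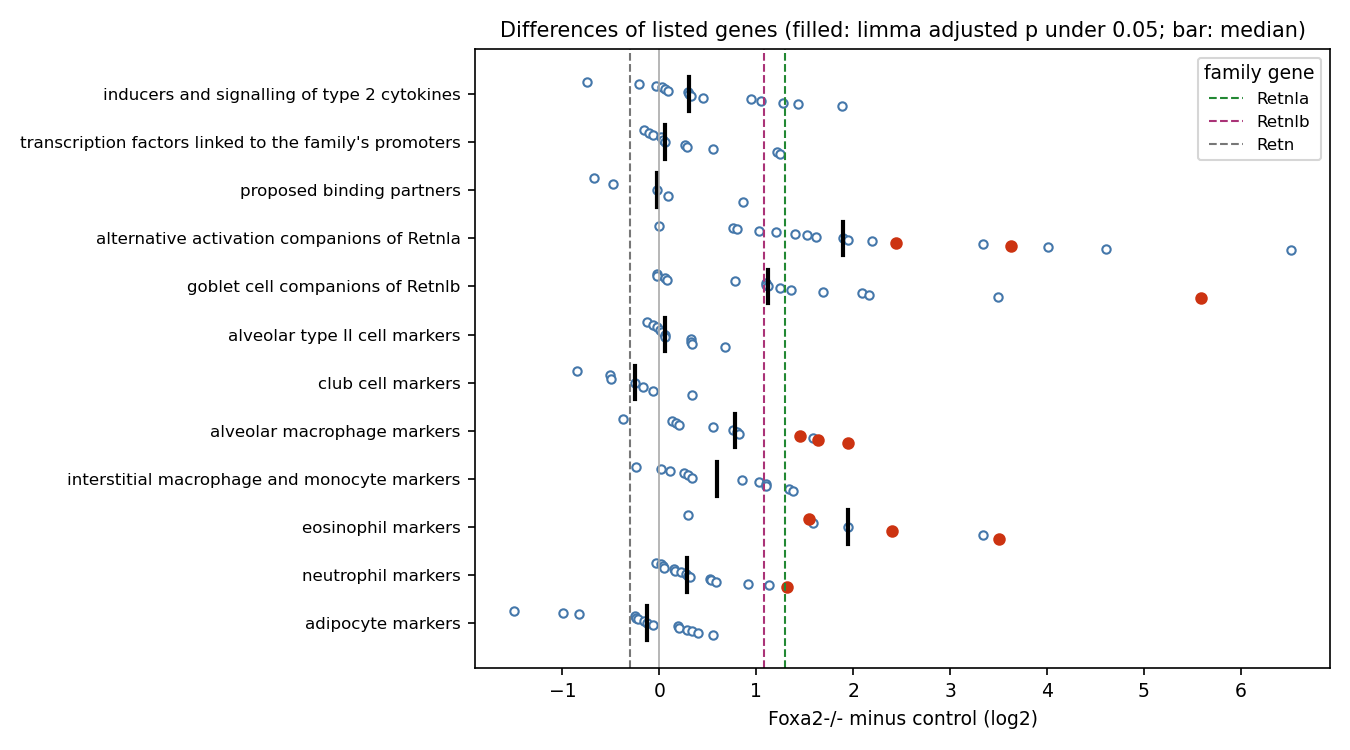
Difference between Foxa2-/- and control lungs (log2) of every measured gene of 12 lists; open circles did not pass and filled circles had a limma adjusted p under 0.05, black bars are list medians, and dashed lines mark Retnla (1.29), Retnlb (1.08) and Retn (-0.30). The medians nearest in topic are 1.90 for alternative activation and 1.13 for goblet cells. With the title number as a fixed block, where control replicate 2 is the only control compared, they are 1.63 and 2.08. Retnla and Retnlb are then 2.49 and 1.24, so the order drawn here depends on the setting.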

How the data were processed

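Per the submitters' processing notes, the authors made the deposited log2 values with RMA, which corrects background, equalises the arrays and summarises probe sets. RMA's version and settings are not given in the sources used, nor is a genome build; that the scale is log2 was inferred from the range of the values. Equalised arrays hide any shift shared by most genes. Of 45101 probe sets, 64 Affymetrix controls were left out; 34945 of the other 45037 had 1 gene symbol in the platform annotation, 932 several and 9160 none. Each of 18193 genes was represented by its brightest single-symbol probe set. The test was limma's moderated test (version 3.58.1, R 4.3.3; eBayes after lmFit; null minus control; no covariate; dim genes kept; statmod 1.5.0 for the random block). It was two-sided, p-values were adjusted by Benjamini-Hochberg over all genes, the threshold was 0.05 and intervals are 95%. The fit was tested on simulated data. Replicates are numbered in accession order and pair nothing.

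Named were the members, Foxa2, the 5 genes of highest r with each member (leaving out predicted and X- or Y-linked genes), and from each list the members that passed or otherwise the 3 with the smallest p (the lung tissue check is given as a count); other genes given with values, and the genes of a list given only by their r or beside a summed signal (Il13, Stat6, Cebpa, Cebpb, Cap1, Tlr4, S100a8, S100a9, Fcor, Mcemp1, Trat1, Dzip3, Lcn2, Mmp8, Mmp9, Ngp, Ltf, Camp, Sftpc, Scgb1a1 and others) were chosen after their values were seen. The members and lists were chosen with earlier results of these data known. Some listed genes had no single-symbol probe set and were not analysed here. Upstream stretches were aligned globally with free end gaps. Alternatives covered normalisation, dim genes, the variance model, array weights, the title number, each array left out, and how probe sets represent a gene.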

Additional observations from a re-analysis of the deposited data

How the results depend on the processing

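No alternative brought Retnla, Retnlb or Retn under an adjusted p of 0.05. Several alternatives alter only the variance model, the genes tested or the choice of probe set, and cannot change a member's difference. The fixed block and the shared title number give the same estimate, so counts of positive alternatives were partly fixed in advance. Retnla was positive under all 17 alternatives (0.72 to 2.49, limma adjusted p from 0.0841 to 0.551; 0.72 to 1.73 with 1 array left out), and 2.49 within the shared title number. Retnlb was positive under all 15 (0.74 to 1.29, adjusted p from 0.0624 to 0.477; 0.74 to 1.26 with 1 array left out) and had no value where dim genes were left out by their mean. Retn turned to 0.0813 with the title number as a fixed block and within that number (-0.52 to -0.07 with 1 array left out), and had no value among genes above the median of means, where Foxa2 had none either. Foxa2 passed with trend and robust settings (-4.30, adjusted p = 0.044), array weights (-4.95, 0.00368) and the random block (-4.64, 0.0177), and ran from -5.12 to -3.83 with 1 array left out (adjusted p from 0.00227 to 0.214). The 104 genes that passed became 48 with cyclic loess, 52 above the median of means, 607 with array weights, 399 with the random block, 45 of all probe sets, 320 at an adjusted p under 0.1, and 0 with the fixed block (limma; 2121 at an unadjusted p under 0.05). With 1 array left out the count ran from 0 to 249, and it was 0 when control replicate 1, control replicate 2 or null replicate 3 was the one (1654, 1801 and 2111 at an unadjusted p under 0.05). The list medians ran, with 1 array left out, from 1.62 to 2.17 for alternative activation, 0.81 to 1.56 for goblet cells, 0.11 to 0.62 for neutrophils, -0.37 to 0.08 for adipocytes, 0.51 to 0.93 for interstitial macrophages and monocytes, -0.42 to -0.23 for club cells, 0.06 to 0.31 for transcription factors, -0.00235 to 0.13 for type II cells and -0.43 to 0.15 for binding partners. The eosinophil median ran from 1.499 to 2.57 with 1 array left out, and was 2.94 with the title number as a fixed block. The causes of these changes were not tested. No paired analysis was possible because the replicate numbers were given in accession order and pair no samples; the title number, which groups 3 of the arrays, was used as a block in its place. With 3 arrays a group, and with Retnlb near the floor and Retnla near the top of the scale, the sizes of the differences are uncertain.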
